A study of Mus musculus with 2 samples.

Results

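The genes described here are the numbered mouse zinc finger genes Zfp400 and above, measured in BAC1.2F5 macrophages, a CSF-1-dependent mouse line, on 2 Affymetrix Mouse Gene 2.0 ST arrays. Members were all genes whose annotated symbol is Zfp followed by a number of 400 or higher and at most 1 lower-case letter, on probe sets that carry that symbol alone. The rule found 230 genes among 22180 with a symbol of their own, on 247 probe sets. A gene with several was represented by the one of highest mean signal. That choice, like the choice of the group, was made from the values described below, so these values are given as a description. The first gene inside the limit was Zfp407, with log2 signals of 7.73 (unstimulated) and 7.90 (stimulated), and the last outside it was Zfp398, with 9.34 and 9.22. Of the members, 229 had a RefSeq entry under the same gene ID, 227 of them protein-coding.

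The unstimulated array holds RNA of cells given plain medium with no added ligand for 2 h. The stimulated array holds RNA of cells given NRG1 at 12 nM, a ligand of ErbB receptors, together with the chemokine CXCL1 at 50 ng/ml for 2 h. Cells of both conditions had a BALB/c x A.CA F1 background and grew with CSF-1 (colony-stimulating factor 1, 3000 units/ml) and 10% FBS in α-MEM, so neither array shows cells without growth factor. Each condition had 1 array, so that replicate error is unknown and nothing was tested. All differences are stimulated minus unstimulated log2 signals and describe these 2 arrays alone. In bulk RNA, fewer cells that hold a transcript and less transcript per cell cannot be told apart.

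Most proteins named Zfp carry zinc fingers of the C2H2 type, small loops held by a zinc ion that read DNA bases in tandem. Many also carry a KRAB domain, which recruits the scaffold TRIM28 (KAP1) and, through it, the histone methyltransferase SETDB1, heterochromatin proteins and histone deacetylases, and so silences retroelements and nearby genes. The family has expanded by repeated local duplication, and many members lie side by side in clusters. Others have no KRAB domain and act in chromatin complexes, development or ribosome function. Few members have a described role in macrophages.

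The background level of an array was set from its 1108 probe sets for olfactory receptors, at their 95th percentile, which was 6.86 for unstimulated and 6.91 for stimulated cells. For scale, the differences of the olfactory receptor probe sets had an SD of 0.21. All 9 measured macrophage markers, among them Csf1r, Cd68 and Adgre1, were above background in both arrays, with differences between -0.16 and 0.17. Of the markers of other cell types, 0 of 2 for B cells, 0 of 5 for neutrophils and 0 of 3 for mast cells were above background in either array. Those counts were 1 of 4 for T cells (Cd4), 3 of 4 for fibroblasts, 2 of 4 for epithelial cells and 2 of 3 for endothelial cells in both arrays. The summed signals of the macrophage markers were 15.27 and 15.26 on the log2 scale, and those of the other lists lay between 6.48 and 9.49 in unstimulated and between 6.29 and 9.42 in stimulated cells. The part of these markers in the values of the zinc finger genes was not tested. The cytokine gene Tnf had signals of 11.31 in unstimulated and 13.10 in stimulated cells, a difference of 1.79.

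A majority of the zinc finger genes gave a signal above background, and none of those differed between the arrays by 1.5-fold. In unstimulated cells, 151 of the 230 members were above background, or 65.7%, against 59.2% of all genes. In stimulated cells, 139 were, or 60.4%, against 57.2% of all genes. The 139 were above background in both arrays, 12 were above it in the unstimulated array alone and 79 in neither. No member was above it in the stimulated array alone. The 12 were 5.22% of the members, and over all genes 2.57% passed in unstimulated cells only and 0.613% in stimulated cells only. For counts of differences, a gene counted as above background when its mean over both arrays passed the mean of the 2 levels (6.89), a filter that favors neither array. It kept 144 members, 62.6%, against 58.1% of all genes, and left out 86. The differences of those 86 ran from -0.77 to 0.53. In the plot of both arrays, the members lay close to the line of equal values.

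**Figure D1:**
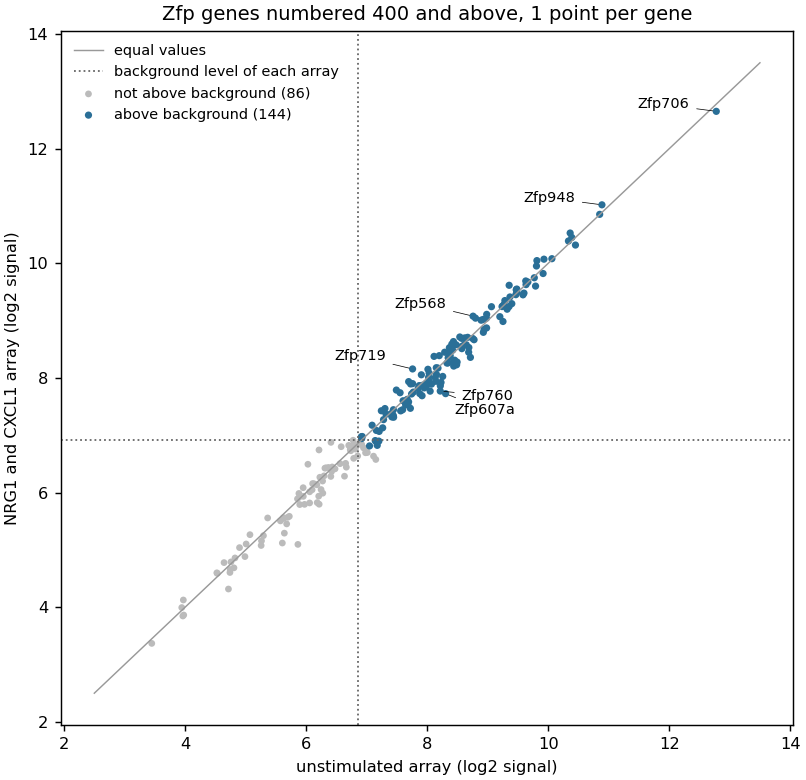
Log2 signal of each of the 230 zinc finger genes in the unstimulated array (horizontal axis) and in the array of cells given NRG1 and CXCL1 (vertical axis), with blue points for the 144 above background by the mean of both, gray points for the other 86 and dotted lines at the background levels (6.86 and 6.91). The points lie along the line of equal values, with Zfp607a and Zfp760 below it and Zfp719 above it.

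At the 1.5-fold limit, 0 of the 144 members above background were lower and 0 were higher in the stimulated array, against 0.0233% and 0.644% of the 12896 genes that passed the same filter. At a smaller limit, a log2 difference of 0.32, 5 members (3.47%) were lower, against 1.12% of all genes. Upward, 1 member (0.694%) passed it, against 2% of all genes. The shares of all genes were not matched to the members for signal. Of the 5, Zfp467 was above background in the unstimulated array alone and can only be given as at least 1.20-fold lower. At 2-fold, 0 members were past the limit in either direction, against 0% lower and 0.233% higher over all genes. At such shares of all genes, few calls could occur among 144 members at 1.5-fold or 2-fold. The differences of the 144 members ran from -0.58 to 0.40, with a median of -0.022, against -0.017 for all genes above background. The sign of both medians depends on the scaling of the arrays, since after centering on the probe sets with 1 symbol they were 0.017 and 0.022. Of the 144, 81 members (56.3%) were lower by any amount, against 56.6% of all genes, and 46.5% against 41.1% after that centering. Another 62 were higher, against 42.7% of all genes. Over all 230 members, with no filter, the median was -0.043 against -0.021 for all genes, and 135 members (58.7%) were lower against 56.2%.

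Above a mean signal of 8, the members were more widely scattered around 0 than other genes. Of the 144, 64 (44.4%) had a difference smaller than 0.1 in either direction, against 64.4% of all genes above background. The SD of the differences was 0.161 for the members and 0.154 for all genes, which include the large changes of the stimulus. Dim probe sets scatter more than bright ones, so the comparison was repeated within bands of mean signal that were set after the values were seen. Between 8 and 9, the interquartile range was 0.245 for 52 members and 0.163 for 2207 genes. Above 9, it was 0.168 for 38 members and 0.107 for 6850 genes. That band has no upper limit. After Zfp706 (mean 12.72), its highest member mean was 10.96 (Zfp948), while signals on the arrays reached 14.07. Members and genes were thus not matched for signal within it, and the part of signal in this wider scatter was not tested. Below 8, where 54 members lay, the interquartile range was 0.158 against 0.186 for 3839 genes. The share with a difference smaller than 0.1 was 44.4% against 49.6% in that band, so the measures of scatter disagreed near background. Between 8 and 9 this share was 38.5% against 58.4%, and above 9 it was 52.6% against 74.6%.

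The direction of the small differences also went with the signal. Below a mean signal of 8, 38 of 54 members (70.4%) were lower, with a median of -0.067, against 62.1% and -0.047 for all genes in the band. Between 8 and 9, 55.8% of the members and 54.7% of all genes were lower. Above 9, 14 of 38 members (36.8%) were lower, with a median of 0.010, against 54.1% and -0.0089 for all genes. The bands kept this order of medians under each of the 4 other scalings, but the sign of the upper bands did not hold, with -0.010 above 9 after centering on all probe sets and 0.014 between 8 and 9 after centering on the probe sets with 1 symbol. Across the 144 members, mean signal and difference had a Pearson correlation of 0.203 and a Spearman correlation of 0.242. Across the 12896 genes these were 0.095 and 0.132. All points come from the same 2 arrays, so this is a description. When the trend of the difference with signal was subtracted over all genes, the median of the members was 0.0037 and that of all genes -0.00060.

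**Figure D2:**
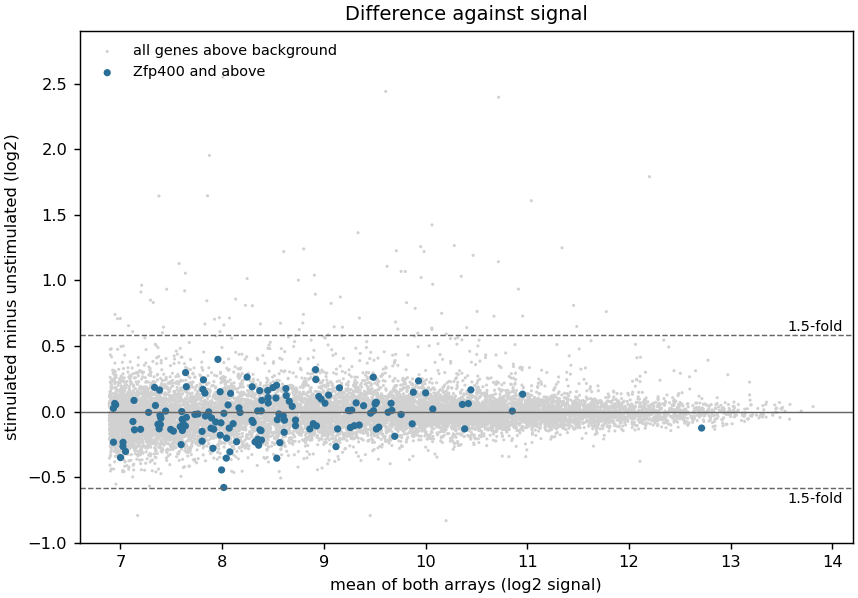
Difference between the arrays (stimulated minus unstimulated, log2, vertical axis) against the mean log2 signal of both (horizontal axis), for the 144 zinc finger genes above background (blue) and all 12896 genes above background (gray), with dashed lines at 1.5-fold. The blue points reach from -0.58 to 0.40 and none lies beyond the dashed lines, whereas 83 genes lie above the upper one.

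The members with the lowest signal in the stimulated array relative to the unstimulated one were led by Zfp607a. Its signal was 8.31 in unstimulated and 7.73 in stimulated cells, a difference of -0.58 (1.49-fold lower), just inside the 1.5-fold limit, which it passed after quantile normalization (-0.61) and after centering on all probe sets (-0.60). This was the largest negative difference of the 144 members, and both values were above background. Zfp760 had signals of 8.22 and 7.77 (1.36-fold lower). Zfp729b had 8.72 and 8.36, and Zfp526 had 8.22 and 7.86, both 1.28-fold lower. Zfp526 has a second probe set above background, whose difference was -0.21 against -0.35 for the first, so both probe sets were lower.

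Zfp467 also passed the smaller limit (-0.35). Of this and the next members in order, 3 were above background in the unstimulated array alone, so that only a bound can be given. Zfp467, a regulator of the choice between bone and fat cell fates, had 7.18 and 6.82, at least 1.20-fold lower. Zfp791 had 7.20 and 6.90, at least 1.22-fold lower. Zfp943 had 7.16 and 6.89, at least 1.18-fold lower, but its second probe set, not above background, had a difference of 0.050, so the probe sets of that gene disagree. The other 5 were measured in both arrays and were between 1.19-fold and 1.24-fold lower. They were Zfp846 (8.23 and 7.92), Zfp974 (8.05 and 7.77), Zfp503 (9.25 and 8.99), Zfp707 (8.49 and 8.23) and Zfp563 (7.72 and 7.47). Zfp503 encodes a corepressor of limb and brain development, and its close relative Zfp703 had 8.14 and 7.94, 1.15-fold lower.

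The largest positive difference was that of Zfp719, with signals of 7.76 in unstimulated and 8.16 in stimulated cells (1.32-fold higher). It was the only member of the 144 past the limit of 0.32. Zfp568, a KRAB protein that represses a placental Igf2 transcript in the mouse embryo, had 8.76 and 9.08, a difference of 0.320 just short of that limit of 0.322. Zfp458 had 7.49 and 7.79 (1.23-fold higher). Zfp516, an activator of brown fat genes, had 9.36 and 9.62, and Zfp933 had 8.11 and 8.38, both 1.20-fold higher. Zfp451, a SUMO ligase, had 8.80 and 9.04 (1.18-fold), and Zfp462, a chromatin regulator of embryonic development, had 9.81 and 10.05 (1.18-fold). The other 5 of the 12 most positive members were Zfp983 (7.69 and 7.94), Zfp770 (8.43 and 8.64), Zfp784 (7.55 and 7.74), Zfp868 (8.20 and 8.39) and Zfp810 (7.24 and 7.43), between 1.14-fold and 1.18-fold higher. All 12 were above background in both arrays.

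**Figure D3:**
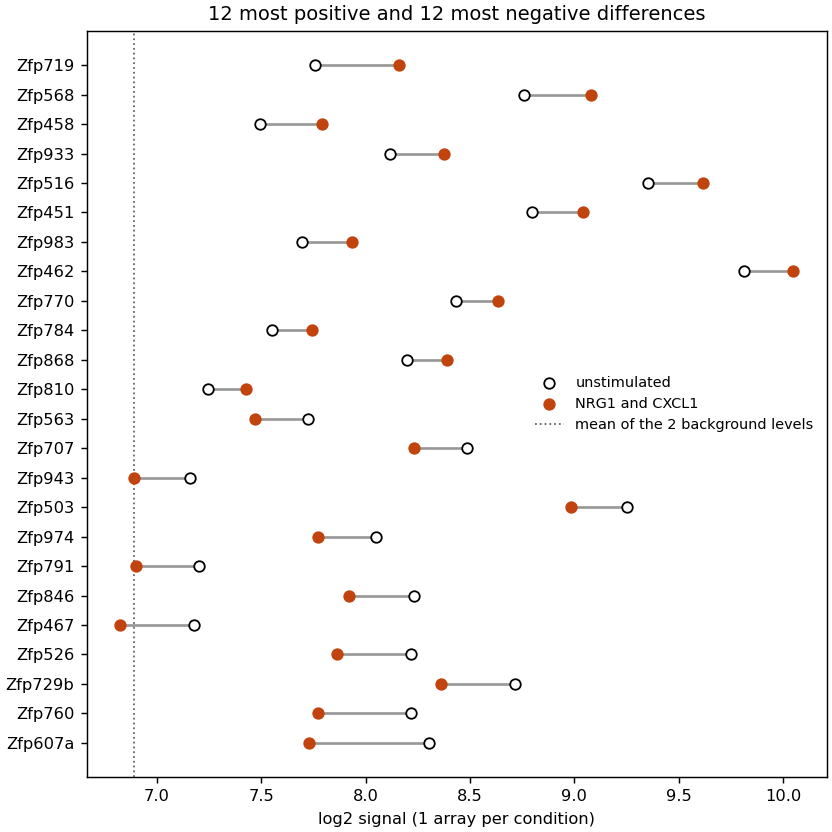
Log2 signal in the unstimulated (open circles) and the stimulated array (filled circles) for the 12 members with the most positive (top) and the 12 with the most negative differences (bottom), with 1 array per condition, no error bars and a dotted line at the mean of the background levels (6.89). Zfp607a shows the longest gap (-0.58), and the filled circles of Zfp467, Zfp791 and Zfp943 lie close to the dotted line.

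Of the 10 members with the strongest signals, Zfp462 was the only one among the extremes above. A signal depends on how well a probe set binds its target, so that signals of different genes do not rank their transcripts. Zfp706, a small zinc finger protein that in mouse embryonic stem cells promotes exit from self-renewal, had 12.78 and 12.65, a difference of -0.13. Its 2 probe sets gave -0.13 and -0.14. Zfp948 had 10.89 and 11.02, Zfp960 10.36 and 10.53, and Zfp871 9.93 and 10.07, with differences of 0.13, 0.17 and 0.14. Zfp622, a factor of large ribosomal subunit maturation, had 10.85 and 10.86. Zfp638, which takes part in the silencing of unintegrated retroviral DNA, had 10.34 and 10.39. Zfp518a, linked to histone methyltransferase complexes, had 10.45 and 10.32, Zfp800 had 10.39 and 10.45, and Zfp511 had 10.06 and 10.08. The other 9 had differences between -0.13 and 0.17.

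Of 5 members listed as repressors of retroelements or imprinted genes, 3 were above background, among them Zfp568. Over all genes, 58.1% were. Zfp809, which silences murine leukemia virus by binding its primer binding site, had 9.24 and 9.25. Zfp445, a guardian of imprinted loci, had 9.47 and 9.54. Both were well above background in the 2 arrays and differed by less than 0.1. Zfp932 and Zfp708, which act on other retroelements, were below background in both arrays, with 5.29 and 5.25 for Zfp932 and 4.72 and 4.32 for Zfp708.

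Of 10 measured members listed as partners of chromatin or SUMO factors, 9 were above background, against 58.1% of all genes. Their differences ran from -0.13 (Zfp518a) to 0.24 (Zfp451), and Zfp518b (6.37 and 6.44) was not above background. Zfp592 (9.47 and 9.45) and Zfp687 (9.63 and 9.63) belong to a complex with the chromatin reader ZMYND8, Zfp609 (9.48 and 9.53) binds the cohesin loader and Integrator, and Zfp618 (8.89 and 9.01) binds the methylcytosine reader UHRF2. Zfp410, an activator of the remodeler gene Chd4, had 9.48 and 9.55, and Chd4 itself 11.01 and 11.10. Outside chromatin, Zfp598, a ubiquitin ligase that senses collided ribosomes, had 9.48 and 9.49.

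Of 12 members listed as factors of particular lineages, 7 were above background by the mean of both arrays and 5 were not. Among all genes, 58.1% were above it. The differences of the 7 ran from -0.35 (Zfp467) to 0.26 (Zfp516). Zfp652, a partner of the corepressor CBFA2T3, had 9.92 and 9.82, and Zfp503 and Zfp703 are given above. The EBF cofactors Zfp423 and Zfp521, known from fat, neural and blood progenitors, had 6.74 and 6.73, and 6.92 and 6.84. Zfp536 (neurons, 6.30 and 6.29), Zfp541 (meiosis, 6.85 and 6.64) and Zfp711 (brain, 4.74 and 4.61) were below background in both arrays. Zfp488, a factor of oligodendrocytes, had 7.30 and 7.47, and Zfp750, a factor of epidermal differentiation, 7.32 and 7.37. By the mean of both arrays, these 2 were 0.50 and 0.45 above background.

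By the number in the symbol, the share above background was lowest, 53.1% of 49, for Zfp900 to Zfp999. It was highest, 72.7% of 44, for Zfp600 to Zfp699, against 62.6% of all members and 58.1% of all genes. The median differences of these 6 blocks of numbers lay between -0.092 for Zfp700 to Zfp799 and 0.061 for Zfp800 to Zfp899.

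Neighboring members were compared next, since duplicated zinc finger genes lie in clusters. In the RefSeq gene order of the assembly GRCm38.p6, runs were formed of members with at most 2 other protein-coding genes between them. There were 13 runs of at least 4 members, with 81 members in all, of which 50 (61.7%) were above background, against 94 of the other 149 (63.1%). The median difference was -0.055 for the 50 and -0.0057 for the 94, but these became -0.016 and 0.033 after centering on the probe sets with 1 symbol, and -0.015 and 0.018 after the trend with signal was subtracted. In 11 of the 13 runs the members did not share a direction or fewer than 3 of them were above background.

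The largest run, 16 genes from Zfp712 to Zfp493, had 5 members above background. In it the adjacent genes Zfp729b and Zfp729a went opposite ways, with a difference of -0.36 for Zfp729b and, from 9.81 and 9.95, 0.15 for Zfp729a. The second run, 12 genes from Zfp948 to Zfp946, held Zfp760 (-0.44) close to Zfp983 (7.69 and 7.94, 0.24). Such neighbors are often alike in sequence, and a probe set of one can bind transcripts of another. The probe sequences were not used here, so this was not tested.

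In 2 runs of 4 genes, all members were above background by the mean of both arrays and lower in the stimulated one. In the run from Zfp956 to Zfp467, the differences were -0.23 for Zfp956 (8.26 and 8.03), -0.23 for Zfp777 (8.44 and 8.21), -0.13 for Zfp746 (9.20 and 9.07), which encodes a repressor of the PGC-1α gene, and -0.35 for Zfp467. The run from Zfp607a to Zfp850 had -0.58 for Zfp607a, -0.28 for Zfp974, -0.098 for Zfp780b (7.44 and 7.34) and -0.23 for Zfp850 (7.14 and 6.91). Zfp850, like Zfp467, passed the background level only in unstimulated cells. All 8 differences kept their sign under each of the 4 other scalings, with Zfp780b closest to 0 at -0.052 after the trend with signal was subtracted. The runs were singled out after their values were seen, and 56.6% of all genes were lower as well. Zfp607b, which shares its number with Zfp607a and lies in none of the runs, had 6.77 and 6.82 and was not above background.

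**Figure D4:**
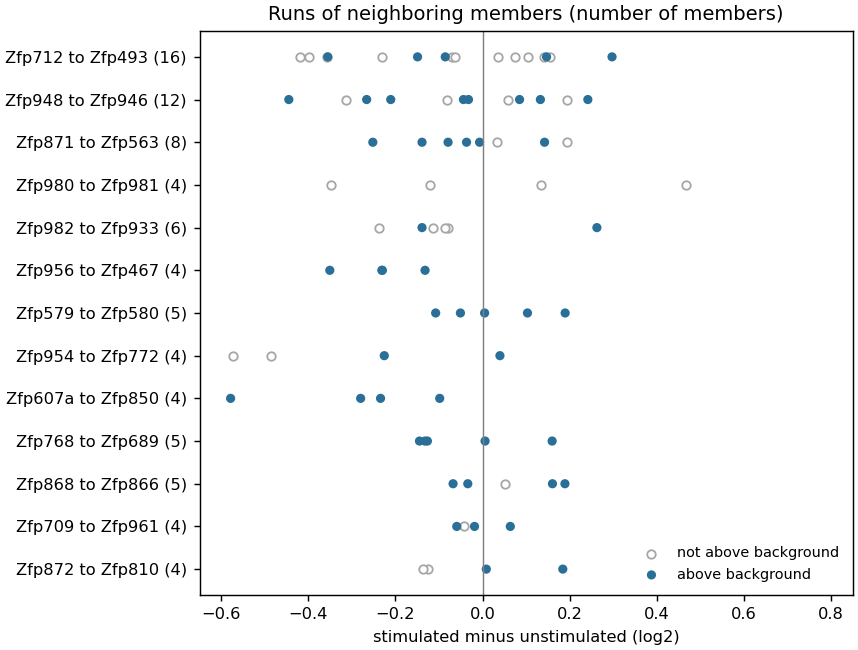
Difference between the arrays (stimulated minus unstimulated, log2, horizontal axis) for the 81 members in 13 runs of neighboring genes, 1 line per run, named by its first and last gene with the number of members, filled where a gene was above background by the mean of both arrays. The 4 filled points of the run Zfp956 to Zfp467 and the 4 of the run Zfp607a to Zfp850 lie left of 0, while the 2 runs at the top spread to both sides.

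The promoter windows of the 4 genes of the second of these runs are shown because the genes lie side by side, had the same sign, and carry related sequence at their starts. They are the 300-base windows that span the gene start, mostly upstream of it, in RefSeq (GRCm38.p6), written 5′ to 3′ on the strand of the gene. Zfp607a is at chr7:27860335-27860634 on the plus strand, and Zfp974 at chr7:27929409-27929708, Zfp780b at chr7:27979108-27979407 and Zfp850 at chr7:28014066-28014365 on the minus strand. Capitals mark the stretches AAAATCAG, GCCTCCCCT and GGGAACTC, searched on both strands and not overlapping each other.
Zfp607a: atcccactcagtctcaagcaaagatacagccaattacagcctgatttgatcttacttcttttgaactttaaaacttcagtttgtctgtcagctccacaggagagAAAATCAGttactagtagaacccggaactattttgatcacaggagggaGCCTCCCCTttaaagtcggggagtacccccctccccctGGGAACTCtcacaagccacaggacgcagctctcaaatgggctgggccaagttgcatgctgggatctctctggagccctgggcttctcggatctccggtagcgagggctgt
Zfp974: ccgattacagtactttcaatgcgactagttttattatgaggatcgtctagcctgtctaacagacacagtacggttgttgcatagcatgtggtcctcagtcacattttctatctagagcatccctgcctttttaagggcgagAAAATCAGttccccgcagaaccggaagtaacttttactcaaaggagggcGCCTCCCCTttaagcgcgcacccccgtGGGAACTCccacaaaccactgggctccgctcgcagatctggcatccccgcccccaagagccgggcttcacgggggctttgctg
Zfp780b: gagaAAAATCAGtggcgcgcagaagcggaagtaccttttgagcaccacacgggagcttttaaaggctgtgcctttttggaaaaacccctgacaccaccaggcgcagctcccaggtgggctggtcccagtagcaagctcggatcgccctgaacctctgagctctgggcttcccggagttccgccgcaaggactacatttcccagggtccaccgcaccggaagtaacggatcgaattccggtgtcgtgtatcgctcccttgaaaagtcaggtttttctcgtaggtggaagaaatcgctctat
Zfp850: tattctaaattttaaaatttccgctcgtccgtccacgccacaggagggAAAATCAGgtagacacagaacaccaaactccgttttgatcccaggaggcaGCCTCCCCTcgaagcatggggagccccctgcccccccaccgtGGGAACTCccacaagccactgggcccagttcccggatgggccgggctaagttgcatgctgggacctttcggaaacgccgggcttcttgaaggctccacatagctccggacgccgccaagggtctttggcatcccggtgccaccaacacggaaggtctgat

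The stretch AAAATCAG occurred in all 4 windows, and GCCTCCCCT and GGGAACTC in the 3 of Zfp607a, Zfp974 and Zfp850, in the same order. Over the 21262 windows of protein-coding genes in the table, the stretches occurred in 1.23%, 0.997% and 1.13%. Over the windows of members above background, this run included, they occurred in 4.35%, 5.07% and 3.62%. Only the windows of those 3 genes held all of them, but the stretches were chosen by reading these windows, so this is a description of their likeness. In local alignment, the windows of Zfp607a and Zfp850 were 75.3% identical over 219 aligned columns, and those of Zfp607a and Zfp974 72.5% over 131. The windows of Zfp974 and Zfp850 were 67.7% identical over 130. That of Zfp780b aligned with Zfp607a over 89 columns at 74.2%, with Zfp850 over 48 at 72.9% and with Zfp974 over 39 at 84.6%. Windows of other runs were not aligned, and a link between likeness of windows and the differences was not tested. A matching stretch is not shown to be a binding site.

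Promoter windows were found for 189 members, 225 windows in all. Members above background had a median of 17 CpG dinucleotides in a window and members not above background 9, against 20 over all genes above background. Whatever the signal, the median was 13 for the windows of members and also 13 for those of all protein-coding genes. The motif GGGCGG, bound by SP and KLF factors, was in 54.3% of the windows of members above background and in 61.1% of those of all genes above background. CCGGAAG, a core of ETS sites, was in 18.1% against 16.4%, and the CCAAT box, CCAAT, in 43.5% against 37.0%. The AP-1 motif TGANTCA was in 6.52% against 5.45%, and the TATA box, TATAAA, in 5.80% against 7.31%. Motifs were searched on both strands. Over windows of all members and of all genes, whatever their signal, the order turned for AP-1 (4.44% against 6.99%) and for GGGCGG (47.6% against 46.2%).

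The machinery through which KRAB zinc finger proteins silence genes was present in both arrays. Of 36 gene symbols on the list of KRAB corepressors and heterochromatin factors, 31 were measured, and all 31 were above background in the mean of both arrays. Past a log2 difference of 0.32, 0 were lower and 0 higher, where 1.12% and 2% of all genes were, so that few calls could occur among 31. By any amount 17 (54.8%) were lower, against 56.6% of all genes, and the median difference was -0.026 against -0.017 for all genes, or 0.013 against 0.022 after centering on the probe sets with 1 symbol. Trim28, the scaffold, had 11.30 and 11.26, and Setdb1, the methyltransferase, 10.42 and 10.42. The 6 with the largest differences were Daxx (-0.24), a histone chaperone, Ehmt2 (-0.14), a histone methyltransferase, Atf7ip (-0.11), a partner of SETDB1, the remodelers Chd4 (0.088) and Atrx (0.087), and Tasor (0.084), a subunit of the silencing complex HUSH.

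Other zinc finger families were set beside the members. The Zfp genes with numbers below 400 had 95 of 132 genes above background, with a median difference of -0.062 and 62 (65.3%) lower. Over all genes, 58.1% were above background, and 56.6% of those were lower. Of the 95, 3 passed the 1.5-fold limit upward, where 0.644% of all genes above background did. These were Zfp36 (9.45 and 10.47), an RNA-binding protein with another type of zinc finger that promotes decay of cytokine mRNAs, Zfp263 (8.99 and 9.71) and Zfp119a (7.11 and 7.71). Of the Zbtb genes, zinc finger genes with a BTB domain, 36 of 37 were above background, with a median of -0.042, which was -0.0027 after centering on the probe sets with 1 symbol. The Zscan and Zkscan genes, with a SCAN domain, had 16 of 28 above background and a median of 0.0090, which was -0.012 after centering on all probe sets and -0.017 after quantile normalization. At 1.5-fold, 0 Zbtb and 0 Zscan and Zkscan genes were past the limit in either direction. These families were not tested against the members.

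**Figure D5:**
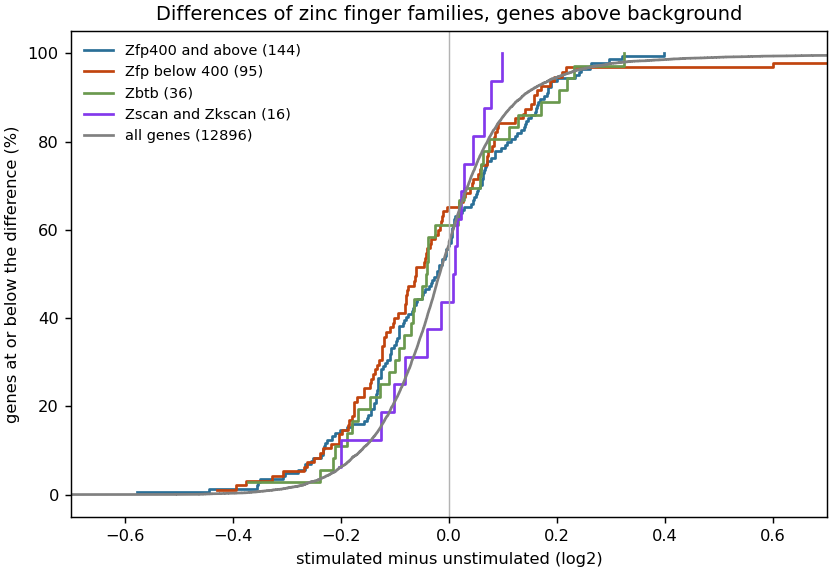
Cumulative share of genes (vertical axis, %) at or below a given difference between the arrays (horizontal axis, stimulated minus unstimulated, log2) for the members, 3 other zinc finger families and all genes above background, with the number of genes in brackets and the axis ending before Zfp36 and Zfp263. The curve of the 144 members is less steep around 0 than that of all genes, with medians of -0.022 and -0.017.

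Most members had 1 probe set, so few values could be set against a repeat measurement within the array. Of the 14 members with several, 4 (Zfp526, Zfp672, Zfp706 and Zfp784) had both probe sets above background. Their probe sets differed from each other by 0.14, 0.078, 0.015 and 0.14 in the difference between the arrays. In Zfp672 the probe sets had opposite signs (-0.018 and 0.060). Where only 1 probe set of a gene was above background, the spread was 0.35 for Zfp597, 0.32 for Zfp943 and 0.22 for Zfp507. It was 0.18 for Zfp799 and 0.031 for Zfp709. The signs were opposite in Zfp597 (0.14 and -0.21) and in Zfp943 (-0.27 and 0.050).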

How the data were processed

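The authors isolated RNA of BAC1.2F5 macrophages with a Qiagen kit, and a core facility ran and normalized the 2 arrays by a method not given in the sources used here. No source names the scale. From their range (2.90 to 14.07), the deposited values were taken as log2 signals, on which all folds depend. Their medians over 41345 probe sets were 6.81 and 6.83. In the platform annotation, 23521 probe sets have 1 symbol, 1820 several and 16004 none.

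Each gene was given by its probe set with the highest mean value. A fold against an array in which a gene was not above background used that background level, or the gene's value there if higher, and is a lower bound. The named genes are the 12 members with the most negative and the 12 with the most positive differences above background, the 10 with the highest mean, and members chosen by role. Of these, Zfp644 and Zfp593 only share probe sets with other symbols and were not counted. The members, lists and limits were chosen with earlier results of these data known. Alternatives were quantile normalization, centering, subtraction of a loess trend (span 0.3), other background levels and filters, other folds and the mean over probe sets. The counting was tested on simulated data. The number of arrays limits the precision. No batch information was used. The protein sequences of the members were not used here, so KRAB domains and fingers were not counted. Calculations ran in Python 3.11.15 (pandas 2.3.3, numpy 2.4.6, statsmodels 0.14.6).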

Additional observations from a re-analysis of the deposited data

Results flagged for a closer look

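One probe set that names 2 of the zinc finger genes, Zfp970 and Zfp971, was left out of the comparisons because its signal cannot be given to either gene. Its log2 signals were 7.75 (unstimulated) and 8.09 (stimulated), a difference of 0.34, the only one past 0.32 upward among the 27 probe sets above background that carry several symbols, at least 1 of them a Zfp symbol numbered 400 or higher. Among all genes above background, 2% passed that limit upward. The number of arrays does not allow a test of the difference of this probe set.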

How the results depend on the processing

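No paired analysis was possible because neither condition had a second array, and for the same reason no replicate could be left out. The median of the members, -0.022, was -0.051 after quantile normalization, 0.0037 after the trend with signal was subtracted and 0.017 after centering on the probe sets with 1 symbol, a setting added after seeing the data. This centering moved the median of the Zfp genes below 400 from -0.062 to -0.023. The count of 0 members at least 1.5-fold lower became 1 after quantile normalization, after centering on all probe sets (Zfp607a in both) and without a background filter (Zfp781, not above background), and 5 at a limit of 0.32 on the log2 scale, at which the count of 0 higher became 1. Those counts follow from the smaller limit. For the other changes the cause was not tested. Of 265 values of 53 named members under other scalings or probe set rules, 0 moved by the olfactory receptor SD of 0.21 or more, and 13, for 8 members with differences under 0.02 in size, changed sign. The largest move was 0.16. Centering shifts all genes alike, and averaging probe sets leaves members with 1 probe set unchanged. Most of these values therefore could not move that far, and the count of 0 says little about how firm the differences are.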

Other observations

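Several symbols, at least 1 of them a Zfp symbol numbered 400 or higher, were carried by 36 probe sets. Of these, 27 name a gene that also has a probe set of its own, and 18 name several genes of this number range. Of the 36, 27 were above background in the mean of both arrays, where 58.1% of all genes were. Their median difference was 0.017, with a range from -0.26 to 0.34. Some of these probe sets had the same signals as each other, so the 36 may not all be separate measurements. At 1.5-fold, 0 were higher and 0 lower, against 0.644% and 0.0233% of all genes above background, so that few calls could occur among 27. A probe set named for Zfp967, Zfp966, Zfp970 and Zfp971 among 7 genes had 10.58 in both arrays. The genes Zfp991 and Zfp993 shared a probe set with signals of 8.58 and 8.67. Zfp644, a partner of histone methyltransferases that shares its probe set with the predicted gene Gm8350, had 8.24 and 8.29.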
